A study of Mus musculus with 2 samples.

Results

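Neurons with the transcripts of the suprachiasmatic nucleus (SCN) made up 128 of the 3801 barcodes with 500 or more genes, out of 4977 barcodes in the merged table of a Drop-seq study of the mouse hypothalamus. A barcode was a neuron when at least 3 of Snap25, Syt1, Stmn2, Meg3 and Snhg11 were above 0. It was a member when at least 2 of Vip, Nms, Prok2, Rgs16, Rasl11b and Vipr2, called the SCN genes here, were also above 0. The members numbered 71 in the wild-type (WT) library and 57 in the Irx5KO library, against 558 and 859 other neurons.

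The SCN lies above the optic chiasm and is the master circadian clock of mammals. It receives light signals from the retina, and its neurons, nearly all of them GABAergic, keep time through feedback between clock genes such as the Per, Cry and Nr1d families. A ventral core of neurons with the peptide VIP relays light to a dorsal shell of neurons with the peptide AVP, and the peptides NMS and PROK2 carry signals between SCN neurons and out of the nucleus.

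The study compared adult CD-1 mice aged 7 to 8 weeks. The WT library came from a pool of 7 mice and the Irx5KO library from a pool of 6 Irx5-/- mice, which lack the homeobox transcription factor Irx5. The tissue was the microdissected arcuate nucleus and median eminence, a region behind the SCN, and the labels do not name the SCN or the hour of dissection. Live cells were sorted, and transcripts were counted from their 3' ends by unique molecular identifiers (UMIs).

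No test between genotypes was possible, as each had 1 library. All intervals are 95% intervals that cover counting error only, and a 1.5-fold difference is a matter of size alone. Genotype, pool, dissection and library cannot be told apart, and fewer transcripts per cell cannot be told apart from fewer cells with them in a summed level. The members had a median of 1958 UMIs (636 to 14524) in WT and 2409 (634 to 11335) in Irx5KO. Other neurons had medians of 2241.5 and 2561. Irx5 itself had 0 UMIs in the members of both libraries. Over all kept barcodes it had 13 UMIs in 11 WT barcodes and 0 in Irx5KO. The sources used here do not say which part of the gene was deleted.

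The members were chosen by the UMIs of the 6 SCN genes, so the levels of these genes are a description. Levels are given as CPM, the UMIs of a gene per 1000000 UMIs summed over the cells of a group. Vip, the peptide of the SCN core, stood at 5996 CPM in WT members and 8262 CPM in Irx5KO members, against 1.80 and 10 CPM in other neurons. Its UMIs lay in 22 of 71 WT members and 24 of 57 Irx5KO members, with up to 239 and 265 in 1 cell. Most members of both libraries thus had no Vip UMI. Nms, which encodes neuromedin S, stood at 530 and 835 CPM in the members and had UMIs in 37 and 35 of them. Prok2, which encodes the secreted signal prokineticin 2, stood at 546 and 654 CPM, in 33 and 29 members. Rgs16, a brake on G-protein signalling that is strongly rhythmic in the SCN, was the most widely detected of the 6, with UMIs in 65 WT and 53 Irx5KO members. Its level was 1940 CPM in WT members and 3056 CPM in Irx5KO members, against 62.5 and 39.7 CPM in other neurons. Rasl11b, a small GTPase of the Ras family, stood at 645 and 1075 CPM. Vipr2, the receptor through which SCN neurons sense VIP, stood at 203 and 90.1 CPM, in 24 and 11 members.

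The promoters of the 3 peptide genes that mark the core, the shell and the output are shown because Vip and Avp divided the members, as described further on. Each is the 250 bases before the transcription start, 5' to 3' on the gene's strand, from RefSeq on GRCm38.p6. Vip is at chr10:5638968-5639217 on the plus strand, Avp at chr2:130582589-130582838 on the minus strand and Prok2 at chr6:99726393-99726642 on the minus strand. Capitals mark CACGTG, the E-box bound by the clock's activators, and TGACG on either strand, the half-site of the cAMP response element.
Vip: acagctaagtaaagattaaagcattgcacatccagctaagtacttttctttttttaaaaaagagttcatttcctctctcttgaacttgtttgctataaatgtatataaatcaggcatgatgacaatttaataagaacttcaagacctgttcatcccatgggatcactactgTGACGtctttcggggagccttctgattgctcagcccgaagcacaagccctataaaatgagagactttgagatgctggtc
Avp: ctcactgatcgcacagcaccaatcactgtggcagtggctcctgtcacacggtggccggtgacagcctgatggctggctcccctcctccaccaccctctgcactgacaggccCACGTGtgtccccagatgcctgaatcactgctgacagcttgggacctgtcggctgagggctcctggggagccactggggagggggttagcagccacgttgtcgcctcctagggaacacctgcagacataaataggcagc
Prok2: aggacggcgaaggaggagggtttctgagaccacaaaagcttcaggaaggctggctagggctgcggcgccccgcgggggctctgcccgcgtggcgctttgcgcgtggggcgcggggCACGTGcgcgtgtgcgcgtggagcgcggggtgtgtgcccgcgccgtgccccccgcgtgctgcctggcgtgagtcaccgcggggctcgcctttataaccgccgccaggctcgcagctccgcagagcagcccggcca
The E-box lay 139 bases before the start of Avp and 135 bases before the start of Prok2, and the half-site 79 bases before the start of Vip. Over all 32851 windows of this length, 6.02% held the E-box and 17.8% the half-site. A match is a description of these letters only.

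Members just inside the rule had exactly 2 SCN genes, and neurons just outside it had 1. Of the WT neurons, 85 had 1 SCN gene above 0, 28 had 2, 17 had 3 and 26 had 4 or more. Of the Irx5KO neurons, 155 had 1, 20 had 2, 11 had 3 and 26 had 4 or more. The most frequent pair among WT members with exactly 2 was Rgs16 with Vipr2, in 11 of 28, against 1 of 20 in Irx5KO. A further 3 barcodes per library had at least 2 SCN genes and 2 of the neuron genes, and 11 WT barcodes and 1 Irx5KO barcode failed only on the number of genes.

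Genes outside the rule were then followed along the number of SCN genes above 0. Six3, a transcription factor that SCN neurons need to form, stood at 121 CPM in WT neurons with no SCN gene, 220 CPM with 1, 477 CPM with 2, 883 CPM with 3 and 797 CPM with 4 or more. In Irx5KO neurons the same steps were 103, 121, 266, 527 and 1019 CPM. Rora, a nuclear receptor of the clock, went from 42.8 CPM at 0 SCN genes through 116 CPM at 1 to 455 CPM at 2 and 1072 CPM at 4 or more in WT, and from 29.4 and 79.5 to 675 and 959 CPM in Irx5KO. In both libraries the level of Rora at 2 SCN genes was above that at 1. Isl1, a transcription factor of arcuate neurons, had 0 UMIs in all 43 WT and 37 Irx5KO neurons with 3 or more SCN genes. It stood at 182 and 155 CPM in neurons with none. Neurons with exactly 2 SCN genes lay between these levels for Isl1, at 22.2 and 40.9 CPM in the WT and Irx5KO libraries, each from 2 UMIs.

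**Figure D1:**
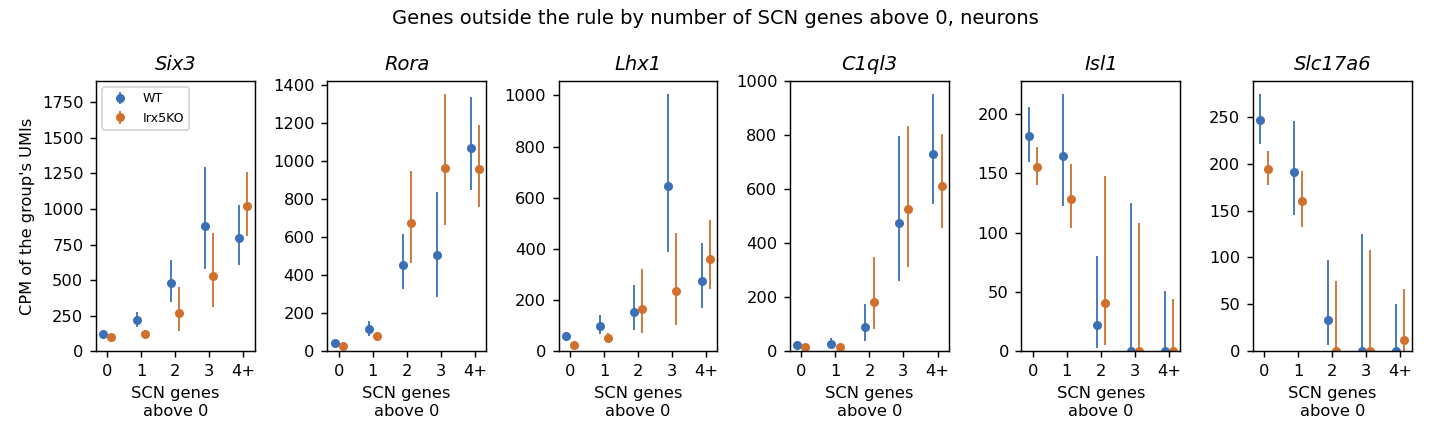
Levels (CPM, y axis) of 6 genes outside the rule in neurons with 0, 1, 2, 3 or 4 and more of the 6 SCN genes above 0 (x axis), for WT (blue) and Irx5KO (orange), with bars for 95% Poisson intervals (counting error only). Six3 reached 797 CPM (WT) and 1019 CPM (Irx5KO) at 4 or more SCN genes, where Isl1 had 0 UMIs.

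The members were 71 of 629 WT neurons, a share of 11.3% (8.92 to 14.0, Clopper-Pearson), and 57 of 916 Irx5KO neurons, a share of 6.22% (4.75 to 7.99). The share in WT was 1.81 times that in Irx5KO (1.26 to 2.62). Of all kept barcodes the members were 3.88% in WT and 2.89% in Irx5KO, and the WT share was 1.34 times the other (0.934 to 1.94). When each cell was first thinned to 1000 UMIs, 35 of 450 WT neurons and 39 of 678 Irx5KO neurons met the rule, a ratio of 1.35 (0.832 to 2.19). In both of these the ratio was below 1.5 and its interval included 1.

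Transcription factors set the members apart from other neurons of the same library. Of 6737 genes measured, each with at least 50 UMIs in each library, 4.38% were at least 1.5-fold higher in members in both libraries and 10.8% at least 1.5-fold lower in both. Of 11 measured genes in a list of SCN transcription factors, 9 were higher in both and 0 lower, with median log2 ratios of 1.28 in WT and 1.86 in Irx5KO, beside -0.10 and -0.16 over all genes. Six3 stood at 660 CPM in WT members against 139 CPM in other neurons, 4.74-fold higher (3.79 to 5.91), and at 697 against 107 CPM in Irx5KO, 6.51-fold higher. Six3os1, the antisense neighbour of Six3, was 6.38-fold and 11.4-fold higher, and its reads may not be separable from those of Six3. Rora stood at 697 against 56.5 CPM in WT, 12.3-fold higher (9.41 to 16.2), and at 877 against 41.0 CPM in Irx5KO, 21.4-fold higher (16.8 to 27.4). Lhx1, a LIM homeobox factor required for the SCN cells to stay in step with each other, was 4.10-fold higher in WT and 8.74-fold in Irx5KO. Rorb, a nuclear receptor related to Rora, was 3.95-fold and 8.04-fold higher. Six6, an eye and hypothalamus homeobox gene, was 2.44-fold and 3.62-fold higher, and Zfhx3, a zinc finger factor of the circadian system, 1.79-fold and 3.82-fold. Dlx2, Dlx5 and Dlx6, homeobox genes of GABAergic neurons, completed the list, while Dlx1 (ratios of 1.01 and 1.04) and Zfhx4 (0.659 and 1.05) were not 1.5-fold higher.

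Transcription factors of neighbouring hypothalamic neurons showed the opposite. Of 6 measured genes in a list for arcuate and nearby nuclei, all 6 were lower in members in both libraries, beside 10.8% of all genes. The median log2 ratios were -3.63 in WT and -3.13 in Irx5KO, without the measured genes at 0 UMIs in the members. Those were Foxb1, Prox1 and Sox14 in WT and Nkx2-1 and Prox1 in Irx5KO. Isl1 had 2 UMIs in the members of each library and was 17.2-fold lower in WT (4.71 to 142) and 12.4-fold in Irx5KO (3.41 to 103). Tbx3, a T-box factor of arcuate peptide neurons, had 2 UMIs and 1 UMI and was 7.22-fold lower in WT and 13.4-fold in Irx5KO. Nkx2-1, which patterns the ventral hypothalamus, had 1 UMI in WT members, where it was 12.4-fold lower, and 0 in Irx5KO members, where it was at least 4.3-fold lower against a floor of 3 counts for the group. These values rest on few UMIs in the members and many in other neurons.

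**Figure D2:**
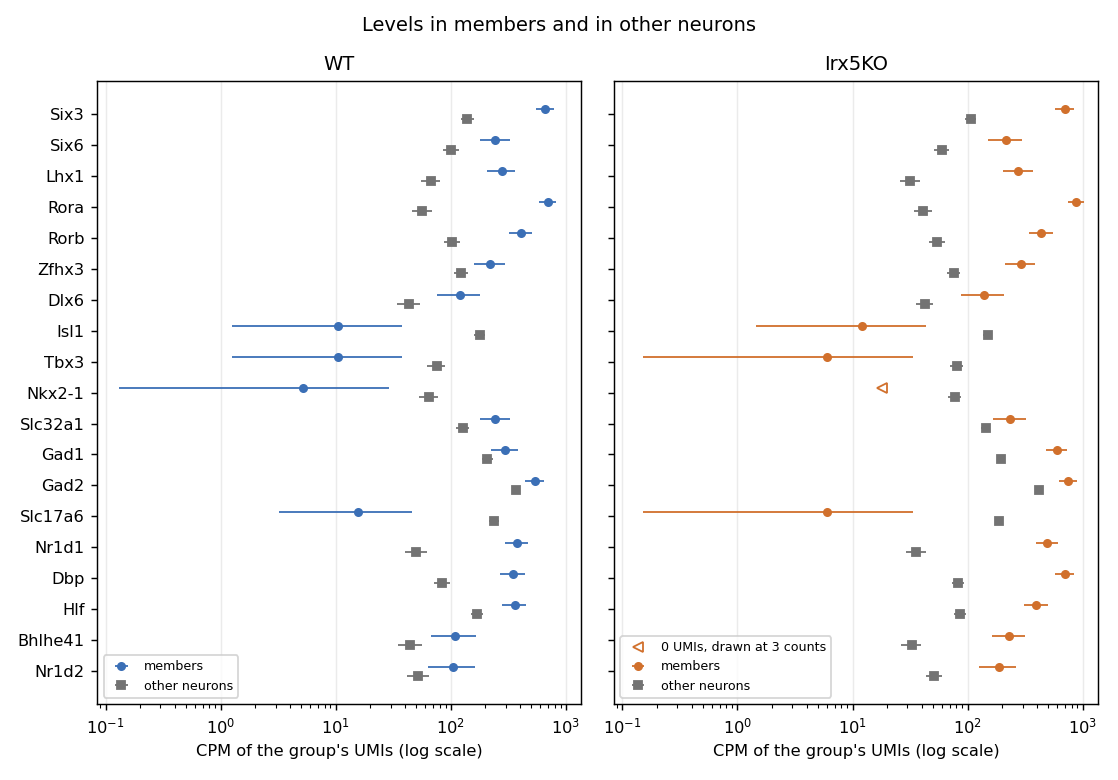
Levels (CPM, log x axis) of transcription factors, transmitter genes and clock genes in members (circles) and other neurons (squares) of the WT (left) and Irx5KO (right) libraries, with bars for 95% Poisson intervals (counting error only) and a triangle for 0 UMIs drawn at 3 counts. Six3 at 660 CPM and Rora at 697 CPM in WT members lie above other neurons, and Isl1 at 10.4 CPM lies below them.

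Peptide genes outside the rule also divided the neurons. Of 13 measured genes in the list of SCN peptides and subtype genes, 3 were higher in members in both libraries and 7 lower. Over all genes 4.38% were higher in both and 10.8% lower. Avp, the peptide of the SCN shell, stood at 8040 CPM in WT members against 1645 CPM in other neurons, 4.89-fold higher (4.59 to 5.21). In Irx5KO it stood at 5416 against 349 CPM, 15.5-fold higher (14.2 to 17.0). C1ql3, a secreted synaptic protein, stood at 390 against 24.6 CPM in WT, 15.8-fold higher (10.7 to 23.8), and at 468 against 17.1 CPM in Irx5KO, 27.4-fold higher. Scg2, the granule protein secretogranin II, was 2.97-fold and 3.63-fold higher. Vgf, another precursor stored in secretory granules, stood at 842 against 132 CPM in WT and 1165 against 199 CPM in Irx5KO.

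Peptides that mark arcuate neuron types were low in the members. Npy, the feeding peptide of Agrp neurons, had 2 UMIs in WT members and 7 in Irx5KO members and was 35.4-fold (9.76 to 293) and 31.2-fold lower. Agrp had 3 UMIs in WT members, 8.09-fold lower (2.73 to 39.5), and 0 in Irx5KO members, at least 20.5-fold lower. Tac2, the neurokinin B precursor of KNDy neurons, had 1 UMI in WT members, 42.3-fold lower (7.54 to 1675), and 0 in Irx5KO members, at least 13.0-fold lower. Sst, the somatostatin gene, was 18.8-fold lower in WT and 8.05-fold in Irx5KO. Gal, the galanin gene, had 1 and 3 UMIs in the members, against 539 and 2008 in other neurons. The 4 dopaminergic markers summed to 26.0 CPM in WT members against 139 CPM in other neurons, and to 114 against 142 CPM in Irx5KO, with the dopamine enzyme Th at 0 UMIs in the members of both.

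The members carried the transcripts of GABAergic neurons. Slc32a1, the vesicular GABA transporter, was 1.93-fold higher than in other neurons in WT and 1.63-fold in Irx5KO. Gad2, a GABA-synthesising enzyme, stood at 536 against 370 CPM in WT and 751 against 413 CPM in Irx5KO. Slc17a6, the vesicular glutamate transporter, had 3 UMIs in WT members, 15.1-fold lower (5.14 to 73.7), and 1 UMI in Irx5KO members, 31.1-fold lower (5.56 to 1230). Other neurons include excitatory cells, and against other GABAergic neurons alone Slc32a1 was lower in members, by 0.19 on the log2 scale in WT and 0.37 in Irx5KO. Slc32a1 was among the genes that selected that group, which raises its level there. Of 11 measured GABA receptor subunits 6 were lower in both libraries and 1 was higher. Gabrg3, the gamma 3 subunit, was 2.49-fold higher in WT and 1.95-fold in Irx5KO. Of 13 measured ion channel genes 4 were lower in both, among them Kcnip4, a potassium channel partner, at 1 and 4 UMIs in the members. Over all 6737 genes, 10.8% were lower in both libraries and 4.38% higher.

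Clock repressors and output factors were higher in the members. Of 12 measured genes of the clock list, 5 were higher in members in both libraries and 0 lower. The median log2 ratios were 0.73 and 0.91. Over all genes 4.38% were higher in both and 10.8% lower. Nr1d1, the clock repressor REV-ERB alpha, stood at 374 against 49.9 CPM in WT, 7.51-fold higher (5.40 to 10.4), and at 492 against 35.8 CPM in Irx5KO, 13.8-fold higher (10.2 to 18.5). Dbp, an output transcription factor driven through E-boxes, was 4.14-fold and 8.44-fold higher. Hlf, a relative of Dbp, was 2.13-fold and 4.62-fold higher, Bhlhe41, a repressor of the loop, 2.46-fold and 7.01-fold, and Nr1d2, the partner of Nr1d1, 1.99-fold and 3.63-fold. With cells thinned to 1000 UMIs Nr1d2 was lower in WT members, at a log2 ratio of -0.53. The Per genes were too sparse to measure, with 8 UMIs of Per1 in WT members and 2 in Irx5KO members. Without the hour of dissection no phase can be read from these levels.

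Other genes that led the list were 13.6-fold and 13.1-fold higher for Avpi1, a vasopressin-induced gene, and 7.58-fold and 9.25-fold for Syt10, a calcium sensor of vesicle release known for its SCN expression. Ppp1r1a, an inhibitor of protein phosphatase 1, was 6.49-fold higher in WT and 12.6-fold in Irx5KO. Zic1, a zinc finger developmental factor, was 6.99-fold and 20.9-fold higher, and Gadd45g, a stress and activity response gene, 5.03-fold and 11.7-fold. Dlk1, a membrane protein related to the Delta ligands, stood at 2309 against 574 CPM in WT and 2936 against 619 CPM in Irx5KO, and had UMIs in 64 of 71 and 52 of 57 members. The rule that named these genes required the same direction in both libraries.

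The members were not uniform, and Vip and Avp divided them. The division was set after the counts per cell were seen, at 5 UMIs of either gene. In WT 17 members (23.9%, 14.6 to 35.5) had at least 5 Vip UMIs and fewer than 5 Avp UMIs, and are called Vip members. In Irx5KO there were 23 (40.4%, 27.6 to 54.2). Avp members, with the reverse, were 29 in WT (40.8%, 29.3 to 53.2) and 19 in Irx5KO (33.3%, 21.4 to 47.1). A single WT cell, with 48 Vip and 62 Avp UMIs, reached 5 of both, and 24 WT and 15 Irx5KO members reached 5 of neither. Among Vip members 15 of 17 in WT and 21 of 23 in Irx5KO had no Avp UMI, and among Avp members 28 of 29 and 19 of 19 had no Vip UMI. At any count, UMIs of both peptides were found in 6 WT and 2 Irx5KO members. The intervals of the shares overlapped between the libraries for both kinds.

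**Figure D3:**
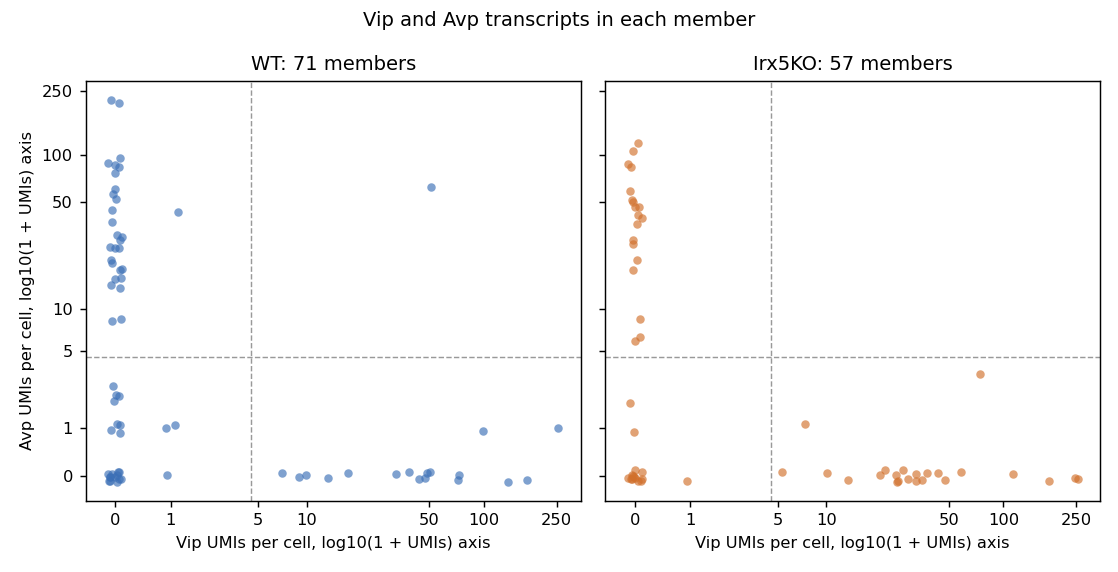
Vip UMIs (x axis) and Avp UMIs (y axis) in each member of the WT (left) and Irx5KO (right) libraries, on log10(1 + UMIs) axes with a small sideways and upward jitter, and dashed lines at the limit of 5 UMIs. All cells but 1 WT cell with 48 Vip and 62 Avp UMIs lie along one axis or near the origin.

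Shares of cells with a UMI of these peptides were also taken at equal depth. Vip belongs to the rule, so its share is a description. After thinning to 1000 UMIs, Vip was found in 25.8% of 62 WT members and 42.3% of 52 Irx5KO members, with 9 and 5 shallower members left out, against 31.0% and 42.1% unthinned. In oligodendrocytes, with medians of 1839.5 and 1528 UMIs per cell, the thinned share was 1.35% in WT. In Irx5KO it was 0 of 80 cells, with an upper limit of 4.51%. Avp was found in 51.6% and 38.5% of thinned members (59.2% and 40.4% unthinned). It was found in 8.05% and 4.61% of thinned other neurons and in 4.05% and 5.00% of thinned oligodendrocytes (9.77% and 11.5% unthinned). The Avp share of Irx5KO other neurons was thus at the level of oligodendrocytes, while that of the members was above it in both libraries.

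Nms and Prok2 belong to the rule, and an Avp member without Vip had to carry other SCN genes, so their levels in the 2 kinds of member are a description. Nms stood at 760 CPM in WT Vip members and 876 CPM in WT Avp members, and at 1318 and 706 CPM in Irx5KO. Prok2 stood at 810 and 890 CPM in WT and 682 and 896 CPM in Irx5KO. Among members with neither peptide Nms stood at 116 and 295 CPM, and Prok2 at 77.3 and 295 CPM. These last members held all Cck UMIs, 83 in 7 WT cells and 5 in 3 Irx5KO cells, of the peptide cholecystokinin.

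Vip members and Avp members differed in further genes. Of 963 genes measured, with at least 20 UMIs in each library, 5.3% were at least 1.5-fold higher in Vip members in both libraries and 6.85% at least 1.5-fold lower. Calb2, the calcium buffer calretinin, stood at 711 CPM in WT Vip members with 0 UMIs in WT Avp members, at least 16.8-fold higher. In Irx5KO it stood at 357 against 17.2 CPM, from 23 UMIs and 1 UMI. Ppp1r1a was 3.14-fold (2.07 to 4.83) and 2.77-fold (2.01 to 3.86) higher in Vip members, and Syt10 2.44-fold and 3.06-fold. Of 7 measured genes of the immediate early list, 3 were higher in Vip members in both libraries and 0 lower. Fos, the transcription factor that follows neuronal activity, stood at 1840 against 876 CPM in WT and 3597 against 1964 CPM in Irx5KO. Nr4a1, an orphan nuclear receptor of the list, was 7.23-fold and 3.37-fold higher. Npas4, a factor induced by calcium entry that is not in the list, was 3.97-fold and 2.33-fold higher. Egr1 differed in direction, at 98.1 against 268 CPM in WT and 946 against 155 CPM in Irx5KO.

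Another set was higher in Avp members. Oxt, the oxytocin gene that lies beside Avp and shares sequence with it, stood at 1130 and 1309 CPM in WT and Irx5KO Avp members, against 24.5 and 31.0 CPM in Vip members, and is reported as uncertain because reads of Avp could be assigned to it. Rorb was 10.4-fold higher in WT, where Vip members had 3 UMIs, and 2.81-fold in Irx5KO. Dlk1 was 2.51-fold and 2.48-fold higher, and Gnas, the stimulatory G-protein subunit, 2.54-fold and 2.36-fold. Vgf was 4.98-fold and 2.30-fold higher, and Hap1, the huntingtin-associated protein, 28.8-fold in WT, from 50 UMIs against 1, and 2.88-fold in Irx5KO. The naming rule required the same direction in both libraries, while the size differed most for Hap1 and Rorb among these genes.

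**Figure D4:**
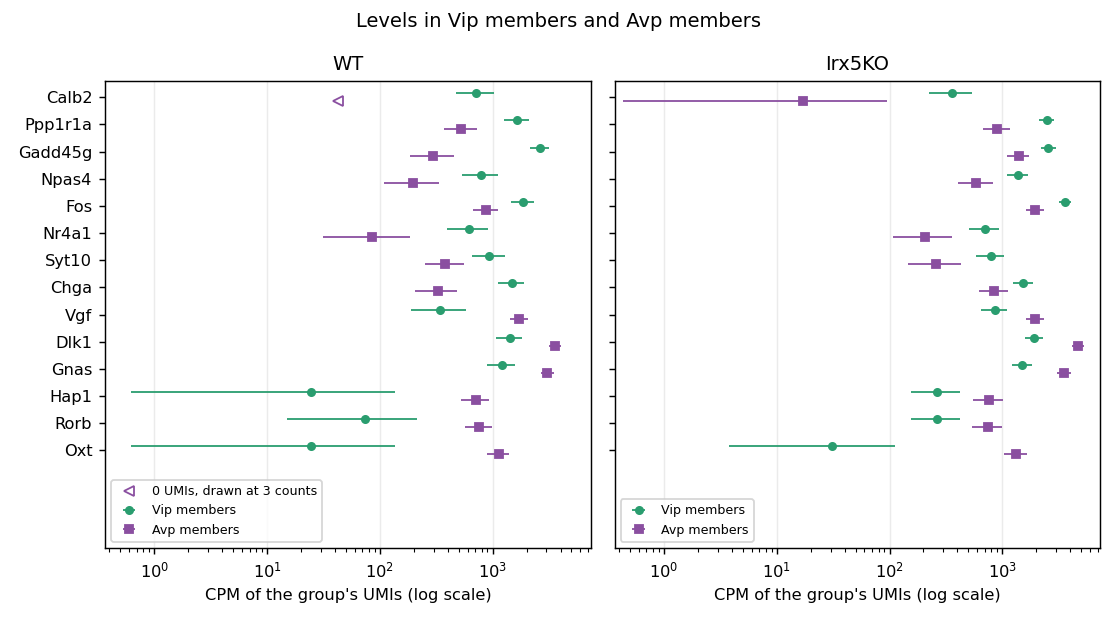
Levels (CPM, log x axis) in Vip members (circles) and Avp members (squares) of the WT (left) and Irx5KO (right) libraries, with bars for 95% Poisson intervals (counting error only) and a triangle for 0 UMIs drawn at 3 counts. Fos at 1840 and 3597 CPM and Calb2 at 711 and 357 CPM in Vip members lie above Avp members, and Dlk1 and Vgf lie below.

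Between the libraries the members differed in immediate early, clock and respiratory genes. Of 1514 genes with at least 50 UMIs over the members of both libraries, 9.91% were at least 1.5-fold higher in Irx5KO. A further 13.7% were at least 1.5-fold lower, so that 41.9% of the genes at least 1.5-fold apart were higher. Scaling by the median of ratios, which shifted the log2 ratios by 0.08 against the total, gave 185 higher and 158 lower, or 53.9% higher. Members and other neurons of a library share its preparation, so the ratio in other neurons is given beside that in members. Of the 150 genes that were higher, 22 (14.7%) were also at least 1.5-fold higher in other neurons, and of the 208 lower genes 55 (26.4%) were also lower there. Over all 1514 genes, 2.18% were higher and 6.41% lower in other neurons.

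Immediate early genes were higher in the members of the Irx5KO library. The 15 genes of the list summed to 2876 CPM in WT members and 5242 CPM in Irx5KO members. They summed to 2449 and 1925 CPM in other neurons and to 7903 and 7978 CPM in non-neuronal barcodes. Whether these levels follow neuronal activity was not tested. Of 8 measured genes of the immediate early list, 4 were at least 1.5-fold higher in Irx5KO members and 0 lower, while in other neurons 0 were higher and 2 lower. Over all 1514 genes, 9.91% were higher in Irx5KO members and 13.7% lower. The difference between members and other neurons was not tested. Fos stood at 1014 CPM in WT members and 2276 CPM in Irx5KO members, a ratio of 2.24 (1.88 to 2.68), beside 0.839 in other neurons. Npas4, which is not in the list, stood at 296 and 793 CPM, a ratio of 2.67 (1.95 to 3.72), beside 0.782. Fosb, a relative of Fos, had a ratio of 2.69 and Nr4a1 one of 1.98. Fosb did not meet the limits set for genes named between genotypes, of 10 cells with a UMI and at most 20% of UMIs in 1 cell. Egr1, a zinc finger factor of the same response, had a ratio of 2.47, and 41.3% of its Irx5KO UMIs lay in 1 cell. Because Vip members held more Fos and were a larger share of the Irx5KO members, the ratios were also taken within each kind. Fos had ratios of 1.95 in Vip members (1.5 to 2.57) and 2.24 in Avp members (1.63 to 3.11), and Npas4 of 1.74 and 2.96. Egr1 had ratios of 9.64 in Vip members and 0.578 in Avp members.

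Clock genes outside the rule leaned the same way. Of 5 measured genes 3 were at least 1.5-fold higher in Irx5KO members and 0 lower, beside 9.91% and 13.7% of all genes. Dbp stood at 348 CPM in WT members and 697 CPM in Irx5KO members, a ratio of 2.0 (1.47 to 2.74), beside 0.981 in other neurons, and its ratios were 1.42 in Vip members and 2.22 in Avp members. Bhlhe41 had a ratio of 2.09 (1.20 to 3.75) and Nr1d2 one of 1.79, whose interval of 0.988 to 3.31 included 1. Nr1d1 (1.31) and Hlf (1.10) were not 1.5-fold apart. The E-box of the Avp and Prok2 promoters shown above was also found 153 bases before the start of Bhlhe41 and not in the windows of Dbp and Nr1d1.

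The SCN transcription factors were less than 1.5-fold apart between the members of the libraries, in 6 of 6 measured. Most genes were less than 1.5-fold apart too, as 9.91% of all 1514 genes were higher and 13.7% lower. Six3 had a ratio of 1.05 (0.813 to 1.37), Lhx1 of 1.0 (0.660 to 1.52), Rorb of 1.08, Rora of 1.26, Zfhx3 of 1.32 and Six6 of 0.884. In other neurons 4 of the 6 were at least 1.5-fold lower in Irx5KO, beside 6.41% of all genes. Lhx1 stood at 67.3 and 31.6 CPM there, Rorb at 103 and 54.5 CPM, Six6 at 100.3 and 59.7 CPM and Zfhx3 at 122 and 75.5 CPM. The higher ratios of members over other neurons in Irx5KO for these genes therefore came with lower levels in the other neurons.

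Single genes outside these lists differed further. Ppp1r1a stood at 640 CPM in WT members and 1381 CPM in Irx5KO members, a ratio of 2.16 (1.73 to 2.71), beside 1.12 in other neurons. Gadd45g stood at 822 and 1705 CPM, a ratio of 2.08 (1.70 to 2.54), beside 0.890, with ratios of 0.975 in Vip members and 4.70 in Avp members. Gad1, the other GABA-synthesising enzyme, stood at 296 and 594 CPM, a ratio of 2.01 (1.43 to 2.83), with 2.04 in Vip members and 0.813 in Avp members. Gadd45g was thus 1.5-fold apart in Avp members and not in Vip members, and Gad1 the reverse, but the difference between the kinds was not tested. Cwc22, a splicing factor, stood at 104 and 420 CPM, a ratio of 4.04, beside 2.16 in other neurons. Ubl3, a ubiquitin-like protein, had a ratio of 2.93, and Xbp1, a factor of the unfolded protein response, one of 2.85.

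Sez6, a neuronal membrane protein of dendrites, was lower in the Irx5KO members by the largest factor of the 12 lower genes named. It stood at 458 CPM in WT members and 60.0 CPM in Irx5KO members, 7.62-fold lower (3.95 to 16.4), and was 5.72-fold lower in other neurons too. Of 27 measured genes of oxidative phosphorylation 10 were at least 1.5-fold lower in Irx5KO members, beside 13.7% of all genes, and 0 were higher. Their median log2 ratio was -0.43, beside -0.08 over all genes. In other neurons 4 of the 27 were at least 1.5-fold lower, beside 6.41% of all genes. Cox7c, a subunit of cytochrome c oxidase, was 2.32-fold lower in members and 2.02-fold in other neurons. Romo1, a small mitochondrial membrane protein, was 2.06-fold lower in members and 1.20-fold in other neurons. Rn7sk, a nuclear RNA that restrains transcription elongation, was 3.26-fold lower in members and 2.91-fold in other neurons. Sez6, Cox7c and Rn7sk were therefore lower in Irx5KO beyond the members as well.

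**Figure D5:**
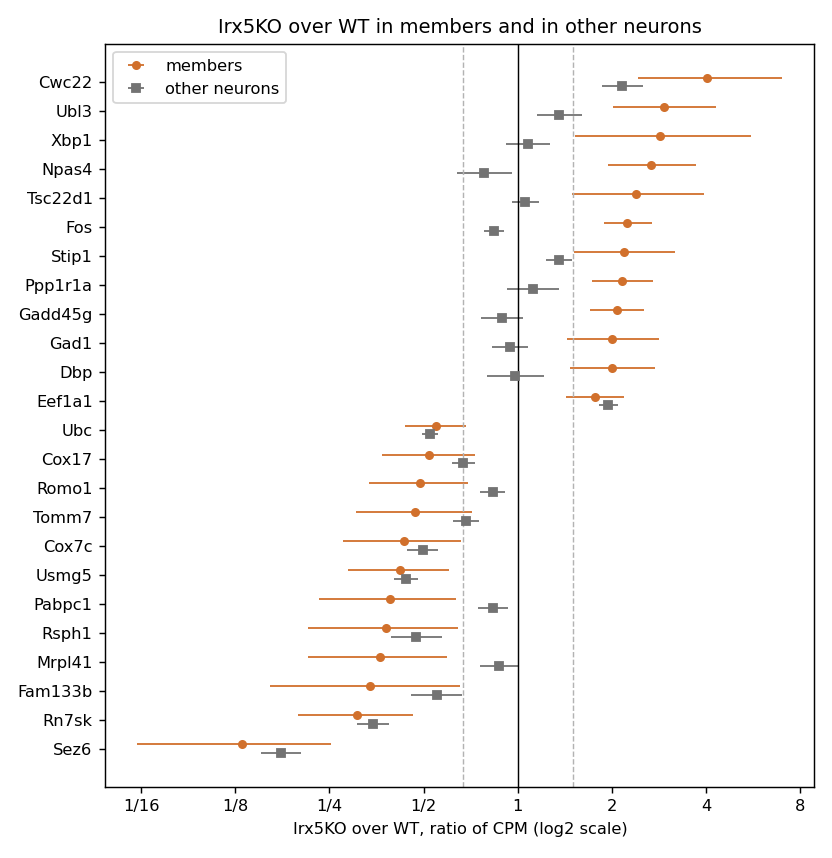
Ratio of Irx5KO over WT (log2-scaled x axis) of the 12 higher and 12 lower genes named by rule, in members (orange circles) and in other neurons (grey squares), with bars for 95% conditional binomial intervals (counting error only) and dashed lines at 1.5-fold. Fos at 2.24 and Npas4 at 2.67 lie above 1 in members and below 1 in other neurons, and Sez6 lies below 1 in both.

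Of 8 measured genes of the list of SCN peptides and subtype genes, 3 were at least 1.5-fold lower in Irx5KO members and 0 higher. Over all genes 13.7% were lower and 9.91% higher. In other neurons 3 of the 8 were at least 1.5-fold lower and 0 higher, beside 6.41% and 2.18% of all genes. Their median log2 ratio was -0.48 in members and -0.54 in other neurons. Cck and Cartpt rested on few cells. Cck had 83 UMIs in WT members and 5 in Irx5KO members, 14.4-fold lower (5.92 to 45.4), in the 7 and 3 cells named above. Penk, the enkephalin precursor, was 6.64-fold lower, with 50% of its WT UMIs in 1 cell. It had UMIs in 13 WT and 4 Irx5KO members, and within Avp members 18 UMIs in WT and 0 in Irx5KO. Cartpt, a peptide of arcuate Pomc neurons, was 2.79-fold lower, with 97.6% of its WT UMIs in 1 cell. Its log2 ratio was 3.84 without the largest member of each library. That value in turn rested mostly on 1 Irx5KO cell, which held 66 Cartpt UMIs and was not the largest. Avp was 1.48-fold lower (1.37 to 1.61). Within Avp members Avp stood at 20726 and 15419 CPM in WT and Irx5KO, and within Vip members Vip stood at 27009 and 21317 CPM.

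Markers of other cells were low in most members, and in some lists most UMIs lay in 1 cell. The 3 mammillary neuron markers were an exception in WT, where 83 UMIs, all of Cck, lay in 7 members, at most 23 in 1 cell. They summed to 432 CPM in WT members against 412 CPM in other neurons, and to 36.0 against 271 CPM in Irx5KO. The 5 oligodendrocyte markers summed to 63 UMIs in WT members, at most 6 in 1 cell, and to 581 in Irx5KO members, of which 512 lay in 1 cell. Mbp, the myelin basic protein gene, accordingly had a ratio of 4.85 with 87.3% of its Irx5KO UMIs in 1 cell. Without the 1 WT and 2 Irx5KO members that had 10 or more UMIs of a glial or vascular marker list, the log2 ratio of Mbp was -1.10, against a positive value with them. The 3 Pomc neuron markers summed to 263 UMIs in WT members, 248 of them in 1 cell, and to 83 in Irx5KO members, 66 of them in 1 cell. The 5 tanycyte markers summed to 23 UMIs in WT members, 17 of them in 1 cell, and to 4 in Irx5KO members. The microglia markers summed to 5 and 1 UMIs and the endothelial markers to 0 and 1, with Cldn5, Flt1 and Pecam1 at 0 in both libraries. The part of these cells in the other genes was not tested.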

How the data were processed

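Cells of 1 WT and 1 Irx5KO library were grouped by the genotype labels. STAR 2.6.0b, Seurat 3, Picard, bcl2fastq and the build mm10 are named in the submitters' processing notes, without roles. UMI counts were deposited for WT by the authors. For Irx5KO, and for both libraries merged, the authors deposited natural log values: 1 was added to each count per 10000 UMIs of its barcode before the log was taken, as their values show. Inverting the merged table (26840 genes, 2627 WT and 2350 Irx5KO barcodes) gave whole numbers for 100% of values within 0.0001, and 0 of 4275938 compared WT UMIs differed from the deposited counts. The design had assumed counts in every table, and the recovered counts were used. The libraries shared 1 barcode sequence.

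The members, gene lists and comparisons were chosen with earlier results of these data known. UMIs were summed per group and library as CPM, with exact Poisson intervals, and ratios have exact conditional binomial intervals. Genes needed 50 UMIs, over both groups in each library against other neurons, or over both libraries between genotypes (20 UMIs per library between Vip and Avp members). Named genes are the 11 of the rule, up to 5 per list, up to 15 per direction against other neurons and up to 12 per direction between genotypes. The ranking used the end of the interval closest to a ratio of 1 and left out ribosomal, mitochondrial, Gm-numbered and Rik genes in the last 2 sets. Those between genotypes also needed 10 cells with a UMI and at most 20% of UMIs in 1 cell. Further genes were named after their values were seen, as were the single cells and the genes of the Vip and Avp comparison. Oligodendrocytes had at most 1 of the 5 neuron genes and at least 4 of 5 oligodendrocyte markers, among them Mbp, Mog, Mag and Cldn11. Results of some genes are not reported here. Other GABAergic neurons had at least 2 of Gad1, Gad2 and Slc32a1 and no Slc17a6. Scrublet at an expected rate of 5% called 10 of 1829 WT barcodes (0 members) and 24 of 1972 Irx5KO barcodes (1 member), which were kept. The ratio script was tested on simulated counts. Python 3.11.15, numpy 2.4.6, scipy 1.17.1, pandas 2.3.3, scanpy 1.11.5 and matplotlib 3.10.9 were used.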

Additional observations from a re-analysis of the deposited data

Results flagged for a closer look

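Some genes had opposite directions in the compared groups, and none of these differences was tested. The log2 ratio of Irx5KO over WT was 0.81 in members and -1.22 in other neurons for Chga, the granule protein chromogranin A. It was 1.43 and -0.64 for Fosb, and 0.99 and -0.60 for Nr4a1.

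The log2 ratio of members over other neurons also took opposite signs in the libraries for some genes. For Chga it was -1.17 in WT and 0.86 in Irx5KO. For Cry1, a clock repressor, it was -0.69 and 1.32, from 4 UMIs in WT members and 15 in Irx5KO members. For Gem, a small GTPase induced by activity, it was -1.19 and 2.01. For the glial genes it was -2.39 and 0.74 (Cldn11), -2.23 and 1.49 (Cryab) and -1.05 and 0.70 (Mbp). A single Irx5KO member held 512 of the 581 oligodendrocyte marker UMIs of the Irx5KO members.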

How the results depend on the processing

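No paired analysis was possible because each genotype had 1 library. The share of members in Irx5KO over WT lay between 0.507 and 0.745 under all 8 alternatives, beside 0.551. Counts of genes depended on the settings, in part by construction, since fewer UMIs or cells leave fewer genes measured. Against other neurons the 295 higher and 728 lower genes became 122 and 266 with cells thinned to 1000 UMIs, 171 and 297 against other GABAergic neurons, 534 and 1497 from 20 UMIs and 1206 and 6642 with no minimum. Between genotypes the 150 higher and 208 lower genes became 661 and 675 from 20 UMIs, 5336 and 5781 with no minimum, 23 and 41 with thinned cells, 78 and 110 with at least 3 SCN genes, 38 and 54 in Vip members alone and 37 and 66 in Avp members alone. The settings for Vip or Avp members alone, for cells rich in glial or vascular UMIs and for the largest members were chosen after seeing the data.

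Of the values of single genes, 556 against other neurons stayed within the interval of the reported value, 117 left it and 10 reversed. Between genotypes these were 475, 48 and 10. A change of sign was counted as reversed only where the reported ratio was at least 1.5-fold. Smaller ratios could change sign uncounted. Depth limited the comparison between genotypes to 1514 of 26840 genes. The reversed log2 ratios of members over other neurons were -0.53 for Nr1d2 in WT with thinned cells. Against other GABAergic neurons they were -0.19 and -0.37 for Slc32a1 in WT and Irx5KO, -0.091 for Gad2 in Irx5KO, 0.89 for Chga and 0.13 for Cry1 in WT, and 0.36 for Cck in Irx5KO. With at least 3 SCN genes they were -2.66 for Cldn11 and -3.28 for Mbp in Irx5KO. Without cells rich in glial or vascular UMIs Mbp was at -0.82 in Irx5KO. The reversed log2 ratios of Irx5KO over WT with at least 3 SCN genes were 1.53 for Cartpt and -0.94 for Mbp. Without Rasl11b in the rule Mbp was at -0.99. In Vip members alone Gadd45g was at -0.037. In Avp members alone Gad1 was at -0.30, Egr1 at -0.79, Cadps2 at -0.13 and Cartpt at 1.87. Without cells rich in glial or vascular UMIs Mbp was at -1.10. Without the largest members Cartpt was at 3.84, with 66 of its Irx5KO UMIs in 1 cell. The cause was not tested.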

Other observations

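Avp was also high in neurons outside the rule. Of other neurons, 14 in WT and 6 in Irx5KO had at least 5 Avp UMIs. They held 2617 and 925 Avp UMIs, or 71236 and 63723 CPM, with 611 and 632 of these UMIs in 1 cell. Rora stood at 191 CPM in these WT cells and 620 CPM in the Irx5KO cells, from 7 and 9 UMIs. In the Avp members it stood at 975 and 999 CPM. Otp and Sim1 are transcription factors of the vasopressin neurons of the paraventricular and supraoptic nuclei. They had 2 and 0 UMIs in these WT cells outside the rule and 0 in the Irx5KO cells. The 2 Otp UMIs came to 54.4 CPM, against 20.3 CPM in WT other neurons with under 5 Avp UMIs. With so few cells and UMIs, the counts cannot show that these factors were absent.

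Among the raw WT barcodes, 173 were not in the merged table and were not analysed here. Adcyap1r1, the receptor for the retinal peptide PACAP, had 0 UMIs in the members of both libraries, at least 2.50-fold lower than other neurons in WT and at least 3.35-fold lower in Irx5KO.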
